A study of Sus scrofa with 2 samples.

Results

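Pig chromosome 13 was described along its whole length in 1 angiosarcoma-like tumor of the liver and in 1 control liver tissue, with 1 array for each. All probes that the array design places on chromosome 13 were taken, without control spots, which gave 12424 of 177440 probes or 7.0% of the array. The tumor group was a female pig (Sus scrofa) with an angiosarcoma-like tumor, and the labels give a single intraperitoneal dose of 200 mg/kg diethylnitrosamine (DENA), a liver carcinogen, and resection 10 months later. The control group was non-tumor liver of a female pig whose age is not given. The paper states that tumors were hybridized against control liver matched for age, without naming the age. The label of the control group carries the same DENA protocol as the tumor, and whether that animal was treated is not settled by it. Per the labels the DNA came from micro-dissected, paraffin-embedded liver tissue. Cy3 marked the tissue and Cy5 the female reference liver on each array, and whether both arrays carried DNA of the same reference animal is not stated. With 1 array per tissue no test between tumor and control tissue was possible, no p-value is given, and the array's slide and the tissue cannot be told apart. A change in some of the cells and a change in the copies per cell cannot be told apart either, because each array measured DNA pooled from many cells.

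Array-based comparative genomic hybridization (aCGH) sets the brightness of tissue DNA against that of reference DNA at many mapped probes, where the log2 ratio follows the relative number of DNA copies. In a pure population of cells, loss of 1 of 2 copies would give a log2 ratio of -1 and a gain to 3 copies one of 0.58, and normal cells in the sample pull both toward 0. Angiosarcoma is a malignant tumor of endothelial cells, which line blood vessels, and copy number changes of whole arms or of short stretches are common in many solid tumors.

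Chromosome 13 is a large acrocentric chromosome of the pig, with its centromere near one end. It carries orthologs of many genes studied in human cancer. A list of 38 such genes was drawn up for this chromosome. RefSeq places 37 of them on chromosome 13 of the assembly Sscrofa11.1, a count that the choice of genes fixed. Among them are tumor suppressors, such as VHL, which marks hypoxia-inducible factors for degradation, BAP1, a deubiquitinase, and PBRM1, a subunit of a chromatin remodelling complex. Growth genes lie there too, such as CTNNB1, which codes for the Wnt effector beta-catenin. Genes linked to endothelial cells and vessels lie there as well, such as ERG, an endothelial transcription factor, RUNX1, a factor needed for blood formation from endothelium, and COL18A1, whose collagen is the source of endostatin. The build of the array's positions is not named, so they could not be matched to Sscrofa11.1, and the spots are named by position and not by gene. Genes were therefore not placed on the windows, and no value of a single gene is given.

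The 12424 probes were 45 bases long, lay 10175 bp apart at the median, and ran from position 1 to position 145229670. The largest step between neighbouring probes was 196 kb, from 122832601 to 123028701. The array's positions are given as deposited, and the genome build is not given in the sources used here. Outlier-flagged spots, 3 in the tumor and 2 in the control tissue, were not used. The median background-subtracted signal of the chromosome was 60.3 in the tumor channel and 98.1 in its reference channel, and 41.2 in the control tissue channel and 78.3 in its reference channel. In the tumor 77.4% of these probes had a tissue signal well above background, against 79.8% over all autosomes, and in the control tissue 72.6%, against 76.3%. Chromosome 13 was thus slightly dimmer than the autosomes as a whole on both arrays.

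The whole chromosome lay slightly above the autosomal median in the tumor and close to it in the control tissue. The median log2 ratio of tissue over reference, centred on the autosomal median of the same array, was 0.07 in the tumor (SD over 12421 probes 0.52) and 0.01 in the control tissue (SD over 12422 probes 0.53). On the linear scale these medians are ratios of 1.05 and 1.01. The interquartile range of the probes reached from -0.24 to 0.36 in the tumor and from -0.24 to 0.31 in the control tissue, so the values of single probes overlapped almost entirely. Neither array showed a shift near the value of 1 copy lost or gained over the whole chromosome. The order of the arrays depended on the centring. With each array centred on the mode of its autosomal log2 ratios, the medians were 0.03 in the tumor and 0.08 in the control tissue. That setting shifted every tumor value by -0.04 and every control value by 0.06, so signs of values near 0 are relative to the centring.

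Along the chromosome, windows of 1 Mb held 24 to 99 probes (median 87), and their medians formed long waves. On the tumor array the 146 window medians ranged from -0.53 to 0.39 with a median of 0.09 and an SD of 0.164. On the control array they ranged from -0.18 to 0.25 with a median of 0.02 and an SD of 0.0777. With normexp background correction these SDs were 0.171 in the tumor and 0.126 in the control tissue, closer to each other. The tumor profile was the wider one in both settings, although the spread of the differences between neighbouring probes of the chromosome was no larger there, 0.418 in the tumor against 0.439 in the control tissue. Neighbouring windows resembled each other, with a correlation of 0.71 between one window and the next in the tumor and 0.42 in the control tissue, so windows are not independent values.

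**Figure D1:**
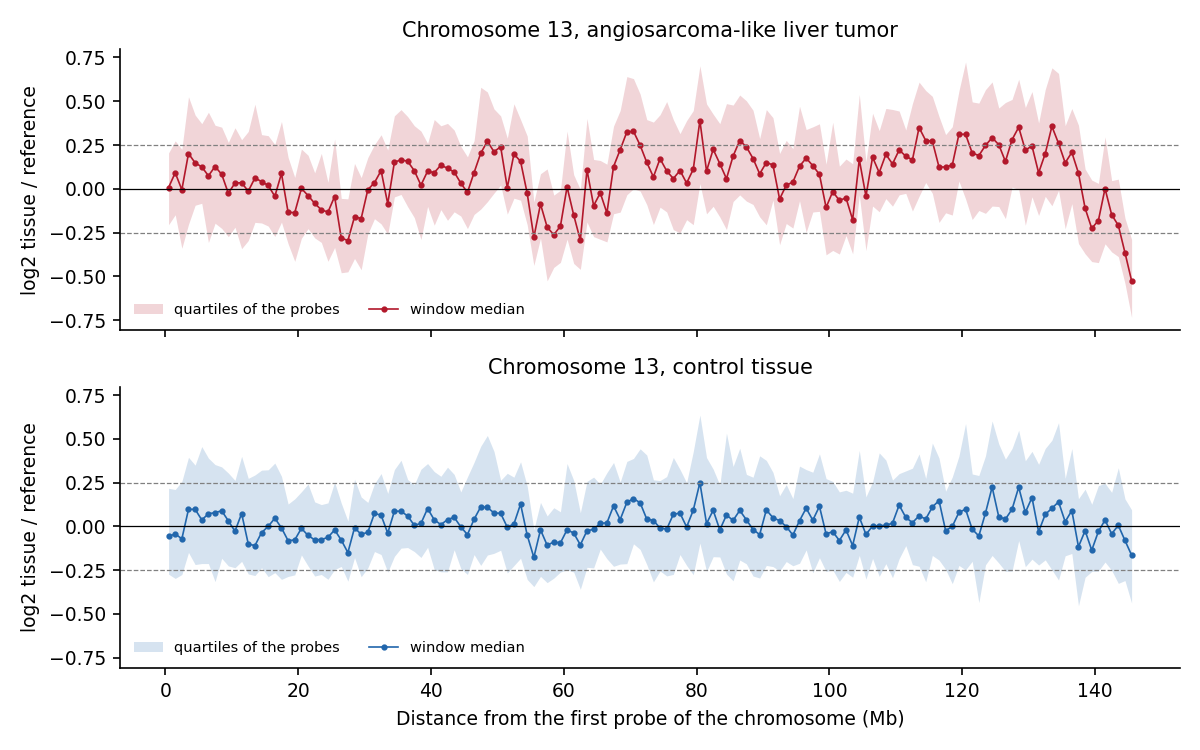
Median log2 ratio of tissue over reference in each 1 Mb window of chromosome 13 (points and line) with the quartiles of its probes (band), against the distance from the first probe in Mb, for the tumor (upper panel) and the control tissue (lower panel). Dashed lines mark -0.25 and 0.25. The tumor medians run from -0.53 to 0.39 and end low, and the control medians stay between -0.18 and 0.25.

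A window was counted as low or high when its median was at least 0.25 in size, a change of about 1.19-fold upwards or to 0.841 of the reference downwards. On the tumor array 16 of 146 windows (11.0%) were high, against 9.46% of all autosomal windows, and 7 windows (4.79%) were low, against 12.1% of all autosomal windows. The share of high windows was thus close to that of the autosomes and the share of low windows was smaller. On the control array 0 windows were low and 0 were high, against 0.326% and 0.699% of all autosomal windows. That count was 3 past 0.25 in size with centring on the mode and 5 with normexp background correction. The limit runs through a continuous range. The window from 125000001 to 126000000, with a tumor median of 0.252, was the last counted as high, and the window from 71000001 to 72000000, at 0.249, was the first left out. On the low side the last counted, from 58000001 to 59000000, had -0.26 and the first left out, from 139000001 to 140000000, had -0.23. The split of 16 high and 7 low windows changed to 9 and 10 with centring on the mode and to 5 and 13 with normexp background correction. No autosomal shares are given for centring on the mode or for normexp, here or below. The comparison of these counts with the autosomes thus holds only for processed signals centred on the median.

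Of the 146 windows 103 (70.5%) were above 0 in the tumor, against 56.1% of all autosomal windows, and 83 (56.8%) in the control tissue, against 53.8%. With centring on the mode the counts were 89 and 125. The signs of the windows fell into 32 stretches of neighbours on the same side of 0 on the tumor array, of which 14 were a single window. The longest, from 106000001 to 138000000, had all of its 32 windows above 0, with a median log2 ratio of 0.21 over 2774 probes in the tumor and 0.06 in the control tissue. In that stretch 26 of the 32 windows were above 0 in the control tissue as well, and 11 of the 16 high tumor windows lay in it. The next, from 67000001 to 92000000, had 25 windows above 0 with a median of 0.17 over 2203 probes in the tumor and 0.05 in the control tissue, where 19 windows were above 0. A further stretch of 11 windows, from 34000001 to 45000000, had a median of 0.12 in the tumor and 0.04 in the control tissue, and 10 of these windows were above 0 in the control tissue. These 3 stretches lay on the same side of 0 on both arrays. The tumor lay farther from 0 in each, but with centring on the mode the medians were 0.17 against 0.12, 0.13 against 0.11 and 0.08 against 0.10, so the order turned in the third. The stretches were also picked on the tumor array. Stretches, windows and intervals picked on an array, here and below, are favoured to lie farther from 0 on it than on the other.

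Stretches below 0 were shorter. From 21000001 to 31000000 all 10 windows were below 0, with a median of -0.13 over 810 probes in the tumor and -0.06 in the control tissue, and the same 10 windows were below 0 in the control tissue. From 54000001 to 60000000 all 6 windows were below 0, with medians of -0.18 and -0.10, and again every one of them was below 0 in the control tissue. From 142000001 to the last probe all 4 windows were below 0 in the tumor, with a median of -0.26, and 3 of them were below 0 in the control tissue, with a median of -0.05. With centring on the mode the tumor medians of these stretches were -0.17, -0.22 and -0.30, and those of the control tissue were 0.0045, -0.04 and 0.01, so the shared sign was lost in the first and the last of them. Over 10 Mb blocks the tumor median was lowest at the end of the chromosome, -0.21 from 140 Mb onward (SD over probes 0.47), and highest from 120 to 130 Mb, 0.25 (SD over probes 0.59). The control tissue had -0.03 and 0.07 in these blocks.

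The lowest tumor window was the last one, from 145000001 to 145229670, which is incomplete and holds 24 probes. Its median was -0.53 in the tumor (SD over probes 0.49), a ratio of 0.695, and -0.16 in the control tissue (SD over probes 0.44). In the tumor 22 of its 24 probes were below 0, with quartiles of -0.73 and -0.29, and in the control tissue 15 were below 0, with quartiles of -0.44 and 0.09. The quartile ranges of both tissues overlapped. The neighbouring window from 144000001 to 145000000 was the next lowest in the tumor, with -0.36 (SD over 93 probes 0.42) against -0.08 in the control tissue. Low tumor windows were also found from 27000001 to 28000000 (-0.30 against -0.15), from 62000001 to 63000000 (-0.29 against -0.11) and from 26000001 to 27000000 (-0.28 against -0.08). All 7 low tumor windows were below 0 in the control tissue, where they ranged from -0.18 to -0.08. The lowest control window, from 55000001 to 56000000, had -0.18 in the control tissue and -0.28 in the tumor. Of the 5 lowest control windows 4 were below 0 in the tumor as well, and the one that was not, from 137000001 to 138000000, had -0.12 in the control tissue and 0.09 in the tumor.

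The highest window was the same on both arrays, from 80000001 to 81000000, with a median of 0.39 in the tumor (SD over 82 probes 0.66) and 0.25 in the control tissue (SD over probes 0.64). These are ratios of 1.31 and 1.19. With the deposited log ratio, in which some spots not above background are set to 0, the median of this window was 0.11 in the tumor and 0 in the control tissue, and the window from 133000001 to 134000000 was higher in the tumor, at 0.33. With normexp the latter was also higher in the tumor (0.29 against 0.24), and in the control tissue the window from 124000001 to 125000000 was (0.27 against 0.23). The place of the highest window thus depended on the processing. High tumor windows followed from 133000001 to 134000000 (0.36 against 0.10 in the control tissue), from 128000001 to 129000000 (0.35 against 0.22), from 113000001 to 114000000 (0.35 against 0.06) and from 70000001 to 71000000 (0.33 against 0.16). All 16 high tumor windows were above 0 in the control tissue, where they ranged from 0.04 to 0.25. In the control tissue the next highest windows were from 124000001 to 125000000 (0.22 against 0.29 in the tumor), from 128000001 to 129000000 and from 130000001 to 131000000 (0.16 against 0.24). Both ends of the tumor range were thus shared in sign with the control tissue.

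Tumor and control windows moved together. The Pearson correlation across the 146 windows was 0.78, where both arrays share the probes and neighbouring windows are not independent. Over the 18 autosomes this correlation ranged from 0.66 to 0.85. Of the windows of chromosome 13, 114 (78.1%) had the same sign on both arrays, against 79.7% of all autosomal windows. In 77 of them both medians were above 0 and in 37 both were below, whereas 26 were above 0 in the tumor only and 6 below 0 in the tumor only. With centring on the mode this imbalance turned, with 2 windows above 0 in the tumor only and 38 below 0 in the tumor only. The tumor median was the larger in size in 120 of 146 windows, and in 91 with centring on the mode. The slope of the tumor medians on the control medians was 1.65, and the slopes of the 18 autosomes lay between 1.14 and 1.86.

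**Figure D2:**
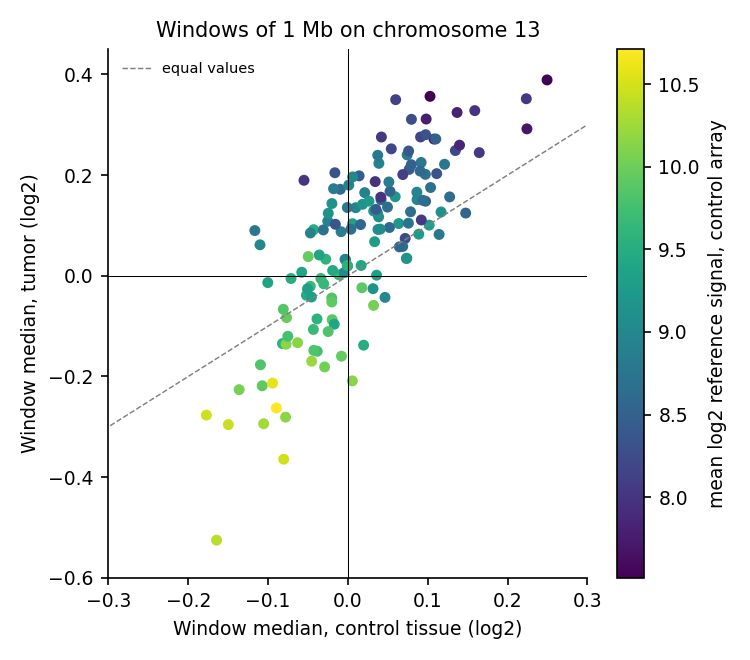
Tumor window medians (vertical axis, log2) against control window medians (horizontal axis, log2) for the 146 windows of 1 Mb on chromosome 13, with the color giving the mean log2 reference signal on the control array. The dashed line marks equal values. The points rise with a correlation of 0.78 and lie more steeply than the line, and the low windows are the bright ones.

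The difference of tumor minus control ranged from -0.36 to 0.29 over the windows, with a median of 0.06 and an SD of 0.115. It was at or below -0.25 in 2 windows (1.37%), against 3.82% of all autosomal windows, and at or above 0.25 in 2 windows (1.37%), against 2.66%. The 2 low ones were the last windows of the chromosome, with differences of -0.36 and -0.28. The 2 high ones were from 113000001 to 114000000, with 0.29, and from 133000001 to 134000000, with 0.25. After these the largest differences were 0.24, from 122000001 to 123000000, where the tumor median was 0.19 and the control median -0.06, and 0.23, from 114000001 to 115000000. On the low side they were -0.21, from 143000001 to 144000000, and -0.20, from 26000001 to 27000000. The window from 122000001 to 123000000 varied with the processing. Among probes well above background in both channels it had 0.36 in the tumor against -0.03, a difference past 0.25. With normexp it had 0.22 against 0.16. With centring on the mode the median difference was -0.04, with 9 windows at or below -0.25 and 0 at or above 0.25. The sign and the balance of the differences thus depended on the centring. With normexp the window from 113000001 to 114000000 had 0.21 in the tumor against 0.19 in the control tissue. That from 133000001 to 134000000 had 0.29 against 0.21, and the last 2 windows had -0.43 against -0.24 and -0.53 against -0.30. None of these windows was past 0.25 in difference with normexp.

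Window medians also moved with the brightness of the probes. The mean log2 reference signal of a window on the control array was correlated at -0.90 with the tumor medians, and that on the tumor array at -0.74 with the control medians, over 146 windows. The differences of tumor minus control were correlated at -0.77 with the mean log2 reference signal on the control array. The 7 low tumor windows had a mean log2 reference signal of 10.4 on the control array and the 16 high ones of 7.97, against 9.05 over all windows of the chromosome. The low stretches were thus bright and the high stretches dim. In the highest window, from 80000001 to 81000000, 56.1% of the probes were well above background in the tumor channel, and in the low window from 144000001 to 145000000 90.3% were. The trend of the log2 ratio with brightness was then learned on the other autosomes and removed from chromosome 13. The SD of the windows fell to 0.0659 in the tumor and 0.0517 in the control tissue, and their correlation was 0.30. The tumor median of the chromosome became 0.0082 and the control median -0.01.

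With the trend removed, 1 tumor window remained at or below -0.25, against 0.0932% of all autosomal windows, and 0 were at or above 0.25, against 0.186%. The remaining window was the last one, from 145000001 to 145229670, with -0.27 in the tumor and -0.07 in the control tissue. Its neighbour from 144000001 to 145000000 had -0.08 in the tumor and 0.02 in the control tissue. The window from 113000001 to 114000000 had 0.13 against -0.05, and that from 133000001 to 134000000 had 0.05 against -0.06. None of these windows had a difference of tumor minus control past 0.25 with the trend removed. The window from 122000001 to 123000000 had -0.05 against -0.17. The stretch from 106000001 to 138000000 went from 0.21 to 0.03, that from 67000001 to 92000000 from 0.17 to 0.01, that from 34000001 to 45000000 from 0.12 to 0.05, and that from 21000001 to 31000000 from -0.13 to -0.01. These stretches thus lay within 0.05 of 0 with the trend removed, whereas the last window of 24 probes stayed past -0.25. The stretch from 54000001 to 60000000 went from -0.18 to 0.0078. That from 142000001 to the last probe, which holds the last window, went from -0.26 to -0.06. The shorter stretches from 61000001 to 63000000 and from 64000001 to 67000000 had -0.06 each with the trend removed. Whether brightness causes the waves was not tested.

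**Figure D3:**
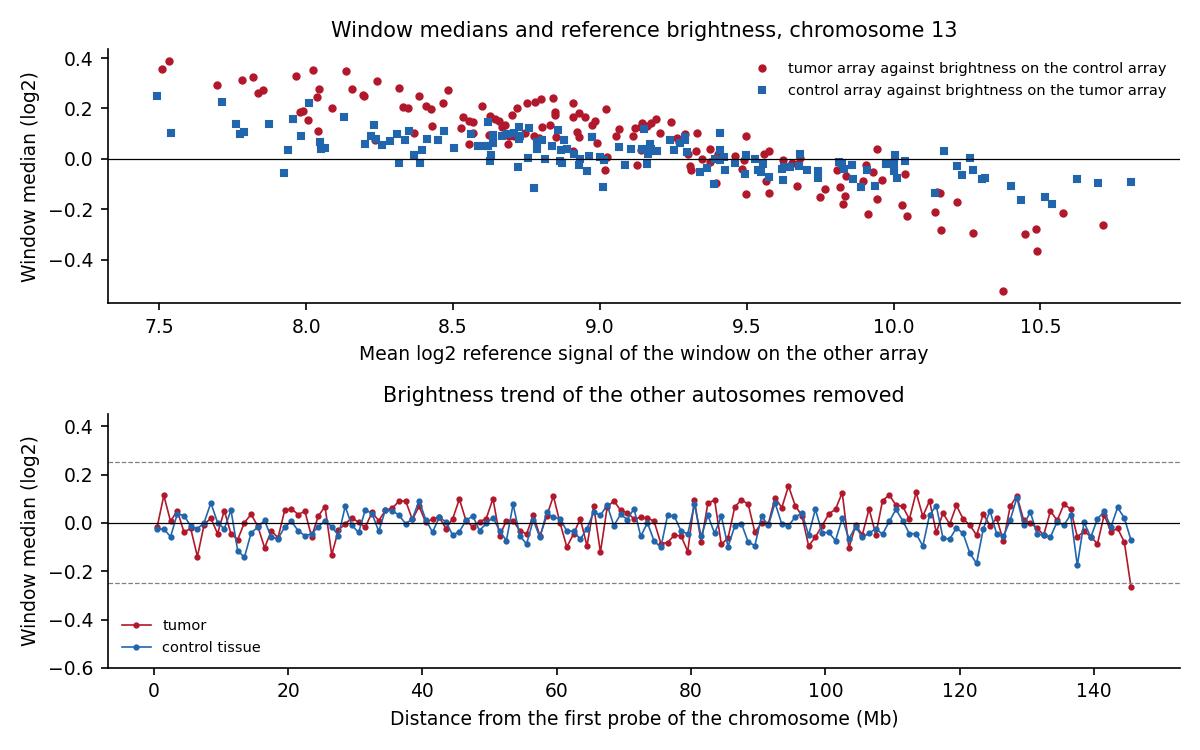
Upper panel, window medians of chromosome 13 (log2) against the mean log2 reference signal of the window on the other array, for the tumor (circles) and the control tissue (squares). Lower panel, window medians after removal of the brightness trend of the other autosomes, against the distance from the first probe in Mb, with dashed lines at -0.25 and 0.25. Medians fall with brightness on both arrays, and after removal the last tumor window, at -0.27, is the one past a dashed line.

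Intervals were called within each array in the way of the ADM-1 algorithm, which scores a run of probes by its summed log2 ratio over the array's noise times the root of the probe number. To be called, a run needed 3 or more probes, a score of 6 or more and a mean past 0.25 in size. The limit on the mean acted during the search, so the extent of intervals with means just past 0.25 was set in part by it. On the tumor array 27 intervals covering 37.7 Mb or 25.9% of the chromosome were called, and on the control array 8 covering 1.27 Mb or 0.875%. The tumor intervals held 106 probes at the median and the control intervals 4. When the limit on the mean was applied only after the search, 1 interval was left in the tumor and 0 in the control tissue, since wide intervals under the limit are then dropped with all that lies in them. With centring on the mode 17 intervals were called in the tumor and 18 in the control tissue, so the larger number in the tumor depended on the centring. With normexp 18 and 13 were called, and among probes well above background in both channels 20 and 1. With the brightness trend removed, 5 and 3 intervals were called.

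The tumor intervals were 18 gains over 25.3 Mb and 9 losses over 12.4 Mb. The balance depended on the processing, with 10 gains and 7 losses after centring on the mode, 8 and 10 with normexp, and 2 and 3 with the brightness trend removed. Gains held 17.8% of the probes of the chromosome, against 14% over all autosomes, and losses 8.63%, against 18.5%. On the control array gains held 0.869% of the probes, against 5.28% over all autosomes, and losses 0.0242%, against 0.298%. In the control tissue, where the mean of all probes of the chromosome was 0.05, the 18 tumor gains had means from 0.02 to 0.56, and 16 of them had a median above 0. Of the 9 tumor losses 8 had a median below 0 there. Of the 8 control intervals 6 overlapped a tumor interval, in the same direction in all 6, and these were 5 of the 27 tumor intervals. Tumor intervals covered 25.9% of the chromosome, and most intervals on both arrays were gains. No share over all autosomes is given for these counts of shared direction and overlap, so they are not read as particular to chromosome 13.

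In the tumor a gain from 68651651 to 71868845 scored highest, at 12.2, and its 273 probes averaged 0.30 on the log2 scale (SD over probes 0.52), and 0.15 in the control tissue. A loss at the chromosome end, from 142491626 to 145229670, scored 11.0 and averaged -0.27 (SD over 263 probes 0.47), and the same probes averaged -0.02 on the control array. Gains from 131892051 to 135157345 (mean 0.26, 292 probes), from 118505451 to 121525620 (mean 0.26, 263 probes) and from 113665851 to 116186520 (mean 0.25, 209 probes) came next, with 0.12, 0.13 and 0.10 on the control array. Apart from the end loss, each of these 5 intervals thus also had a mean above 0 in the control tissue. With the brightness trend removed the means of these 5 intervals were 0.05, -0.08, -0.01, 0.02 and 0.03. A gain of 55 probes from 109083401 to 109655095 was called with the trend removed, with a mean of 0.37 (SD over probes 0.58) against 0.14 in the control tissue. Its end, 4 probes from 109618976 to 109655095, was also called as a gain on the control array with the trend removed. In the control tissue channel 1 of these 4 probes was well above background. Part of this tumor gain was thus shared with the control tissue. Called on the tumor array with the trend removed as well was a loss of 41 probes from 6055976 to 6758095, with -0.42 against 0.08 in the control tissue, opposite in sign. So was a loss of 7 probes from 129015301 to 129075470, with -0.91 against -0.06. In the tumor channel 25 of the 41 probes and 3 of the 7 probes were well above background.

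The intervals with the largest means were short. A loss of 3 probes from 11217476 to 11242495 averaged -1.46 in the tumor (SD over probes 1.44) and 0.92 in the control tissue, opposite in sign. A gain of 6 probes from 106362976 to 106441645 averaged 1.40 in the tumor (SD over probes 0.94) and 0.56 in the control tissue (SD over probes 0.998). In the tumor channel 1 of the 3 probes of the loss and 2 of the 6 probes of the gain were well above background. The mean log2 reference signal was 9.51 over the probes of the loss and 6.12 over those of the gain. A gain of 20 probes from 74414401 to 74636445 averaged 0.59 (SD over probes 0.42), against 0.23 in the control tissue. A gain from 126355001 to 126759270 had 0.40 over 40 probes, against 0.12, and a loss from 100661276 to 101129370 had -0.39 over 42 probes, against -0.15. With the brightness trend removed the means of these 5 intervals were -1.59, 1.29, 0.37, 0.15 and -0.27, and those of 3 and 6 probes stayed past 1 in size. Of the 25 tumor intervals with 20 or more probes, the gain from 74414401 to 74636445 had the largest mean in size. In the tumor channel 11 of its 20 probes were well above background. Neither this gain nor the intervals of 40 and 42 probes were called with the trend removed.

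In the control tissue a gain of 3 probes from 77663926 to 77684320 scored highest, at 6.73, and averaged 1.64 (SD over probes 1.37), against 0.53 in the tumor (SD over probes 1.58). A gain of 4 probes from 134540326 to 134569970 averaged 1.37, against 0.58 in the tumor, and one of 28 probes from 124226576 to 124544820 averaged 0.52, against 0.06. The tumor median of these 28 probes was 0.33 (SD over probes 0.87), and 7 of them were well above background in the control tissue channel. A gain of 4 probes from 109618976 to 109655095 had a mean of 1.33 in the control tissue and 1.104 in the tumor, and all 4 probes were above 0 on both arrays. A single one of these probes was well above background in the control tissue channel. Wider gains of the control tissue lay from 71360051 to 71567295, with 0.59 over 20 probes against 0.50 in the tumor, and from 80220626 to 80821920, with 0.39 over 45 probes against 0.30. The only loss, of 3 probes from 122109251 to 122131495, had -1.49 against -0.45 in the tumor, and none of these 3 probes was well above background. The means of all 8 control intervals had the same sign in the tumor. In the gain from 77663926 to 77684320, however, 1 of 3 probes was above 0 in the tumor, and their median there was -0.05, and in a gain from 133807726 to 133842920 2 of 4 probes were.

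**Figure D4:**
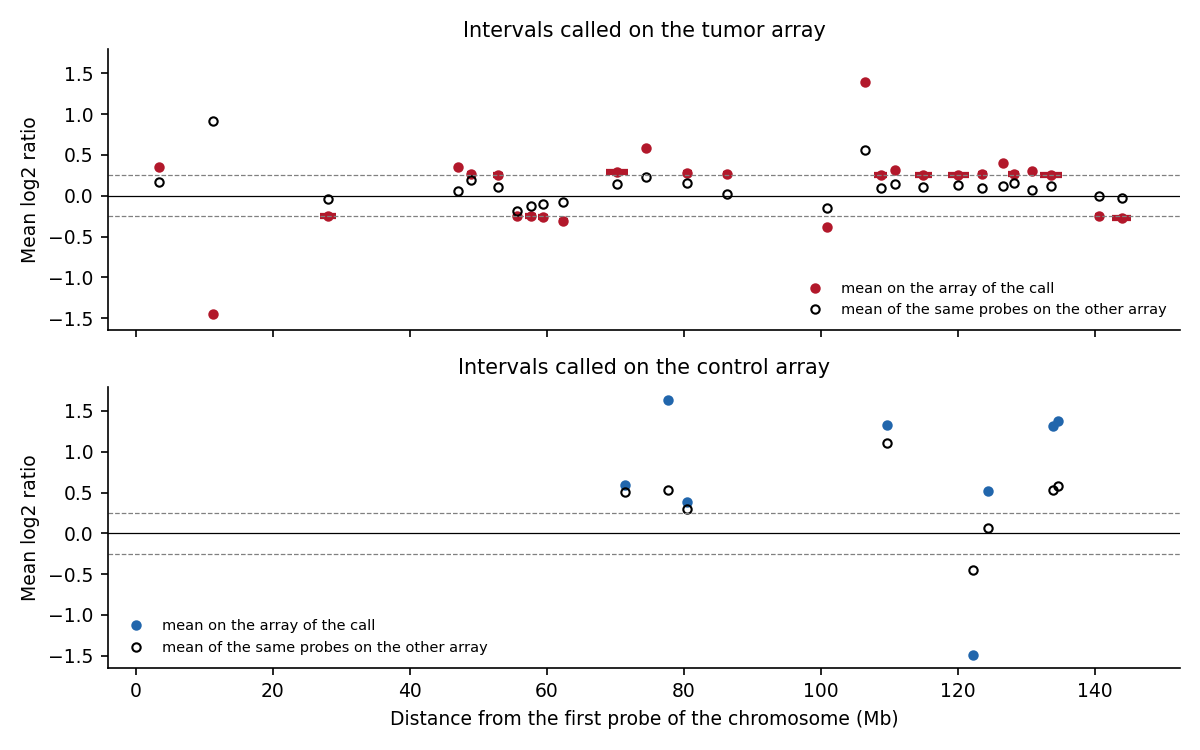
Mean log2 ratio of each called interval on chromosome 13 (filled points, with bars for its extent) against the distance from the first probe in Mb, for intervals called on the tumor array (upper panel, 27) and on the control array (lower panel, 8). Open circles give the mean of the same probes on the other array, and dashed lines mark -0.25 and 0.25. The largest means belong to short intervals, and most open circles lie on the same side of 0 as the filled points.

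Single probes far from 0 were rare. Of 12419 probes without a flag on either array, 296 (2.38%) were at or above 1 in the tumor, against 2% over all autosomes, and 383 (3.08%) at or below -1, against 3.03%. In the control tissue 480 (3.87%) were at or above 1, against 3.56%, and 286 (2.30%) at or below -1, against 2%. On both arrays at once 58 probes (0.467%) were at or above 1, against 0.404% over all autosomes, 41 (0.330%) at or below -1, against 0.366%, and 47 (0.378%) far from 0 in opposite directions, against 0.338%. Chromosome 13 was close to the autosomes as a whole in these shares. Of the 8792 probes of the chromosome well above background in all channels of both arrays, 4 were at or above 1 on both arrays and 5 at or below -1 on both. No share over all autosomes is given for this filter, so these counts are not read as particular to chromosome 13.

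Set beside the other 17 autosomes, chromosome 13 held the second largest number of probes, and its tumor median ranked 3 of 18 from the top, below chromosomes 8 (0.11) and 15 (0.09). With the brightness trend removed chromosome 13 had 0.0082, chromosome 15 0.0073 and chromosome 8 0.0038, and the autosomes ranged from -0.04 to 0.01, so this order depended on the trend. Without that step the tumor medians of the autosomes ranged from -0.23 to 0.11 and the control medians from -0.08 to 0.05. Chromosome 13 ranked 6 of 18 in the control tissue. The SD of its windows ranked 16 of 18 in the tumor and 17 of 18 in the control tissue, so its profile was among the flatter ones. Its share of low tumor windows, 4.79%, ranked 17 of 18, and its mean reference brightness on the control array ranked 15 of 18. Chromosome 15, an acrocentric chromosome of similar probe number, had a tumor median of 0.09, with 14.8% high and 5.19% low windows. Chromosome 14, also acrocentric, had -0.07, with 4.70% high and 10.7% low windows. These ranks describe 1 array per tissue, and no difference between chromosomes was tested.

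**Figure D5:**
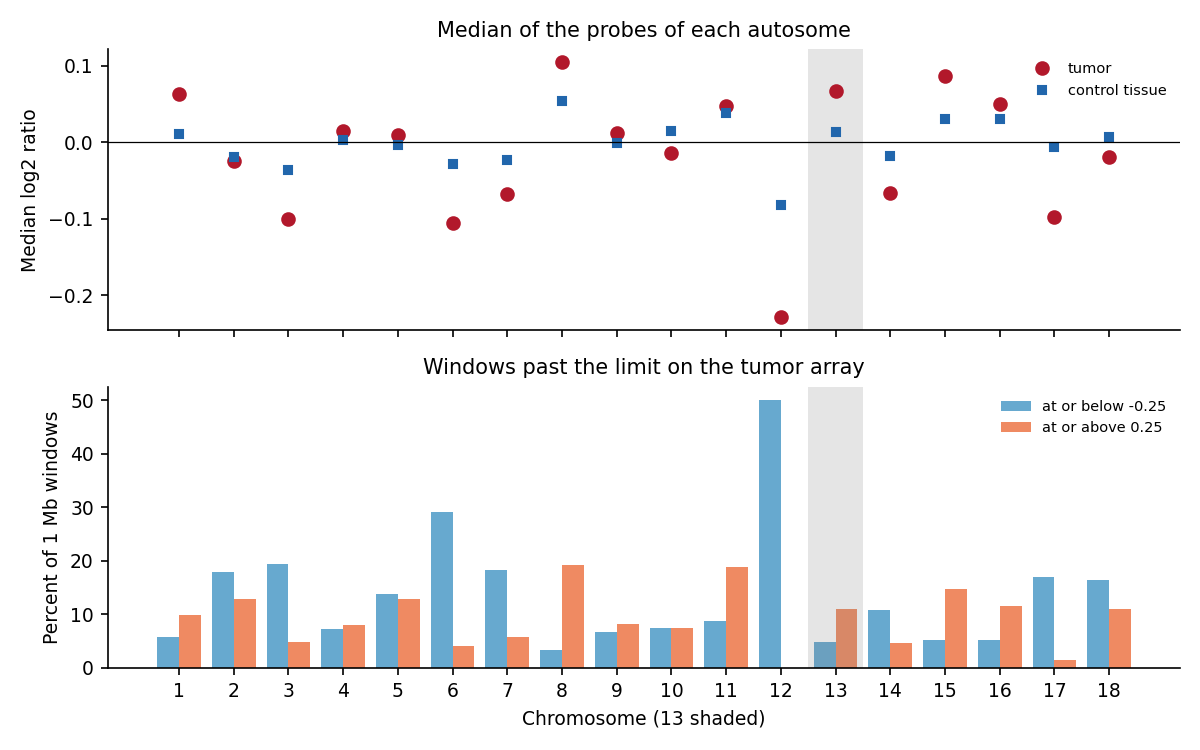
Upper panel, median log2 ratio of the probes of each autosome in the tumor (circles) and the control tissue (squares). Lower panel, percent of the 1 Mb windows of each autosome at or below -0.25 and at or above 0.25 on the tumor array, as bars from 0. Chromosome 13, shaded, has medians of 0.07 and 0.01, 4.79% low and 11.0% high windows.

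The ends of the chromosome differed on the tumor array. The first 5 Mb had a median of 0.08 in the tumor over 413 probes and -0.01 in the control tissue, and the last 5 Mb had -0.21 over 439 probes and -0.03. With the brightness trend removed the tumor median was -0.0011 over the first 10 Mb and -0.06 from 140 Mb onward. Over the 18 autosomes the median of the last 5 Mb was below 0 on all 18 in the tumor, from -0.37 to -0.04, and on 17 of 18 in the control tissue. These control medians ran from -0.12 to 0.04, and centring on the mode shifts every control value by 0.06. The count of 17 thus depended on the centring. The low tumor end of chromosome 13 was thus shared in sign with the other autosomes and ranked 9 of 18 from the top. The first 5 Mb were below 0 on 13 of 18 autosomes in the tumor, and chromosome 13 was among the 5 that were not, together with 10, 15, 16 and 17. The median of chromosome X, measured in females against female reference, was 0.07 in the tumor and 0.04 in the control tissue.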

How the data were processed

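Per the labels, the authors' spot reading used Feature Extraction (Agilent), version 11.0.1.1. Deposited for each spot were intensity values, both median signals and signals the software had corrected for background and for a linear dye factor. The authors also deposited log10 ratios of red over green, and the series table held the same values (largest difference 0). 0 columns were left unused for belonging to no sample. Log2 ratios of Cy3 over Cy5 were formed from the processed signals, outlier-flagged spots were dropped, and the median over chromosomes 1 to 18 was subtracted per array, with no loess or quantile step. Windows of 1 Mb held at least 5 probes. The limit on the mean of an interval was applied during the search. The brightness trend was a lowess (fraction 0.3) on local brightness, taken from the other array's reference channel (mean log2 signal up to 250 kb away). The chromosome, lists and limits were chosen with earlier results of these data known. Named were the 5 lowest and 5 highest windows of at least 20 probes for each tissue and for the difference, the 3 longest stretches, and the 5 intervals with the highest score and with the largest mean on each array, and most of these are given. The spots carry positions and not gene names, so gene symbols come from RefSeq (Sscrofa11.1). Further stretches below 0, the 10 Mb blocks and single short intervals were chosen after their values were seen. Alternatives were another centring, background correction, filters, window widths, the deposited ratios, the opposite ratio direction, control subtraction, the brightness trend and other limits on intervals. Signals from single arrays limit the precision to the spread over probes. Python 3.11.15, numpy 2.4.6, pandas 2.3.3, scipy 1.17.1, statsmodels 0.14.6, numba 0.67.0, matplotlib 3.10.9, R 4.3.3 and limma 3.58.1 were used.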

Additional observations from a re-analysis of the deposited data

How the results depend on the processing

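No paired analysis was possible because each tissue had 1 array and the labels give no replicate numbers. Keeping flagged spots changed none of the 9 summary values of chromosome 13 by more than their limits (for a median, the distance of 0.5 of its 95% order-statistic interval over windows, for an SD 10%, for a count 1.5 times). Centring on the mode gave medians of 0.028 in the tumor and 0.075 in the control tissue, 9 high tumor windows, 3 control windows past 0.25 in size, and 17 and 18 intervals on the tumor and the control array. The deposited log ratio and the series table gave 4 low tumor windows and window SDs of 0.1445 and 0.0539. Normexp gave a control median of 0.040, 13 low and 5 high tumor windows, 5 control windows past 0.25 in size, a control SD of 0.126 and 13 control intervals. Probes well above background gave 1 control interval. Windows of 5 Mb gave 1 low and 0 high tumor windows of 30 and a control SD of 0.0605, and windows of 0.5 Mb gave 15 low and 43 high of 291, 4 control windows past 0.25 in size and a control SD of 0.0937. Removal of the brightness trend gave medians of 0.0082 and -0.014, 1 low and 0 high tumor windows, SDs of 0.0659 and 0.0517, and 5 and 3 intervals. Tumor minus control gave 2 low and 2 high windows and an SD of 0.115. A score of at least 12 gave 1 and 0 intervals, a mean of at least 0.1 gave 7 on the tumor array, at least 10 probes gave 3 on the control array, and the limit after the search gave 1 and 0.

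Red over green turned every sign by construction, to medians of -0.068 and -0.013, 16 low and 7 high tumor windows. Named tumor windows past 0.25 then had 0.28 (26 to 27 Mb), 0.30 (27 to 28 Mb), 0.28 (55 to 56 Mb), 0.29 (62 to 63 Mb), -0.33 (70 to 71 Mb), -0.39 (80 to 81 Mb), -0.35 (113 to 114 Mb), -0.28 (114 to 115 Mb), -0.31 (119 to 120 Mb), -0.29 (124 to 125 Mb), -0.35 (128 to 129 Mb), -0.36 (133 to 134 Mb), 0.36 (the window before the last) and 0.53 (the last window). The window from 124 to 125 Mb was -0.012 with the brightness trend removed. Except where the setting itself is the cause, the cause was not tested. Named windows of both arrays stayed within the 95% order-statistic interval of their own median in 38 of 38 values with flagged spots kept and with probes well above background, in 37 with centring on the mode, in 35 with the deposited log ratio, in 26 with normexp and in 11 with the brightness trend removed.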
